A study of Arabidopsis thaliana with 12 samples.

Results

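The *FT* and *TFL1* family of Arabidopsis comprises the 6 genes *FT* (AT1G65480), *TSF* (AT4G20370), *TFL1* (AT5G03840), *BFT* (AT5G62040), *ATC* (AT2G27550) and *MFT* (AT1G18100), taken by locus identifier from the 37899 genes that RefSeq annotates on chromosomes 1 to 5 of the TAIR10.1 assembly. Their H3K27me3 was measured by ChIP-seq, that is, by sequencing the DNA immunoprecipitated with an antibody against histone H3 trimethylated at lysine 27. The plants were 14-day-old whole seedlings in the Col background, grown under long days. The study asked how the chromatin remodeler BRM and the histone methyltransferase CLF affect this mark. The *brm-1 clf-29* group was the double mutant of both alleles below. The *brm-1* group carried a T-DNA insertion null allele of BRM, and the *clf-29* group a mutant allele of CLF in plants that still have the related methyltransferase SWN. The Col group was the wild type. Each genotype has 2 ChIP libraries, made from separate biological samples, and 1 input library, which is sonicated chromatin before immunoprecipitation, not replicated. The genotypes themselves could not be checked from these reads. In whole seedlings, fewer cells that carry the mark and less mark per cell cannot be told apart.

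Proteins of this family resemble phosphatidylethanolamine-binding proteins and act as mobile signals and transcriptional cofactors. *FT* and its close relative *TSF* are florigens: they are produced in leaf veins, move to the shoot apex and promote flowering together with the bZIP factor *FD*. *TFL1*, *BFT* and *ATC* act against flowering, *TFL1* by keeping the shoot meristem indeterminate, and *MFT* acts in seed germination. H3K27me3 is placed by Polycomb repressive complex 2 (PRC2), in which CLF is a catalytic subunit, and accompanies repressed genes, while BRM is the ATPase of a SWI/SNF complex that moves nucleosomes and opposes Polycomb repression at many loci. *FT* is a known Polycomb target and is repressed by CLF in seedlings.

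The ChIP libraries held 3901085 to 7277025 deposited reads, of which 2112103 to 3654258 remained after 1 read per position and strand was kept. All values below are reads per 1000000 kept reads, RPM, divided by the counted length where genes are compared (RPM per kb). The Col libraries stand apart from the mutants in how much of the library lay in marked chromatin. Of the kept reads, 75.1% and 76.1% fell in the regions enriched in Col in *brm-1 clf-29*, 71.4% and 74.2% in *brm-1*, 75.8% and 76.6% in *clf-29*, and 59.3% and 59.2% in Col, against 16.3% to 16.9% in the inputs. Genes outside every enriched region held 1.21 and 1.00 RPM per kb in *brm-1 clf-29*, 1.24 and 0.769 in *brm-1*, 1.30 and 1.17 in *clf-29*, and 2.68 and 2.72 in Col. On this scale the median change over all tested genes against Col was -0.82 (log2) in *brm-1 clf-29*, -0.75 in *brm-1* and -0.74 in *clf-29*, and that over the genes marked in Col was 0.30, 0.25 and 0.31 in the same order. The part of this difference between libraries in the members' changes against Col was not tested separately. In comparisons among the mutants the Col libraries do not enter the fold change, but they do enter the standard error and p through the shared fit. The labels give no batch of preparation or sequencing, and the part of any was not tested. Of the control genes, *AG*, a well-known PRC2 target, was marked in every genotype and changed by -0.52 in *brm-1 clf-29*, 0.30 in *brm-1* and -0.50 in *clf-29* against Col, while *ACTIN2/7* and *TUB2* lay below their inputs in every library.

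*FT*, *TSF*, *TFL1*, *ATC* and *MFT* were marked in every genotype, and *BFT* was not marked in any. A gene was counted as marked where an enriched region found in both replicates overlapped it, which held for 8623 genes (22.8%) in *brm-1 clf-29*, 9274 (24.5%) in *brm-1*, 8167 (21.5%) in *clf-29* and 8746 (23.1%) in Col. In Col the levels ran from *TFL1* (43.4 ± 3.06 RPM per kb, SD, n = 2) over *ATC* (41.6 ± 4.23), *TSF* (39.3 ± 0.183), *FT* (34.9 ± 2.41) and *MFT* (27.4 ± 2.64) to *BFT* (4.95 ± 0.0295). In that order the libraries of *TFL1* and *ATC* overlapped, as did those of *ATC* and *TSF*, while the remaining neighbours were separated. In *brm-1 clf-29* the order was *TSF* (83.6 ± 1.11), *ATC* (61.8 ± 4.30), *MFT* (55.8 ± 2.63), *TFL1* (53.6 ± 0.763), *FT* (33.2 ± 0.309) and *BFT* (1.93 ± 0.432), with only *MFT* and *TFL1* overlapping. In *brm-1* it was *TFL1* (57.2 ± 7.77), *TSF* (56.9 ± 3.93), *ATC* (48.3 ± 1.49), *FT* (41.3 ± 0.624), *MFT* (31.8 ± 0.135) and *BFT* (3.50 ± 0.166), with only *TFL1* and *TSF* overlapping. In *clf-29* it was *TSF* (77.9 ± 9.74), *ATC* (61.8 ± 0.239), *TFL1* (59.9 ± 1.77), *MFT* (51.0 ± 6.12), *FT* (32.3 ± 4.82) and *BFT* (2.58 ± 0.375), with no overlap between neighbours. *TSF* thus stood above all other members in the genotypes with *clf-29*, and *FT* stood below all other marked members there. Among the marked genes of the same genotype, *TSF* lay at percentile 88.7 in *brm-1 clf-29*, 85.9 in *brm-1*, 84.1 in *clf-29* and 76.9 in Col, and *FT* at percentile 53.0, 68.4, 50.7 and 69.1 in the same order of genotypes.

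**Figure D1:**
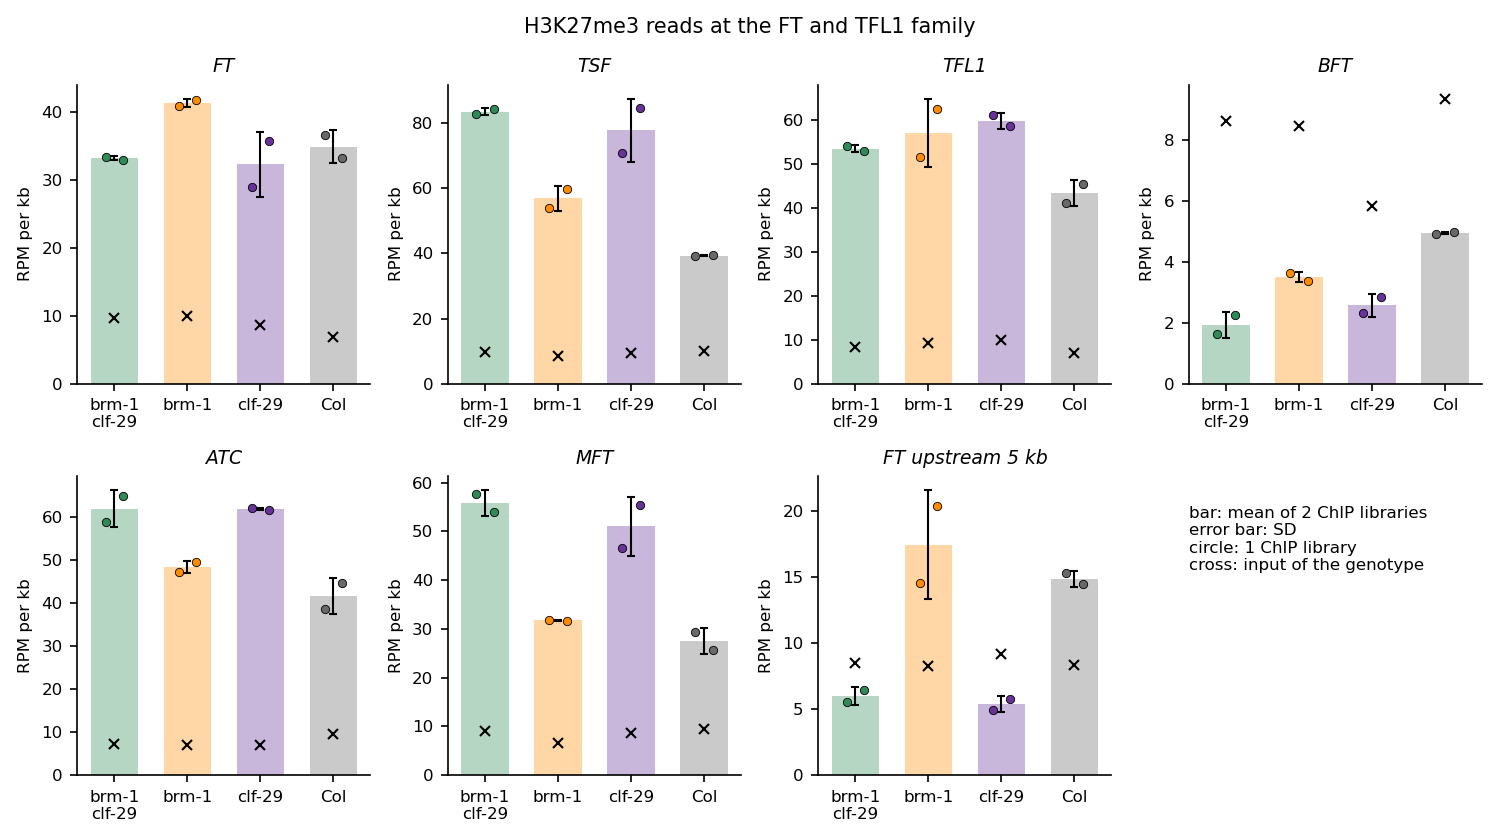
H3K27me3 in RPM per kb at the 6 genes and at the 5 kb upstream of *FT*, by genotype, with bars for the mean of 2 ChIP libraries, error bars for the SD, circles for libraries and crosses for the input of the genotype. *TSF* and *MFT* are highest in both genotypes with *clf-29*, *BFT* lies below its inputs everywhere, and the *FT* upstream stretch lies below its inputs only in the genotypes with *clf-29*.

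Changes between genotypes were tested with limma on log2(RPM + 1) in a single fit of the 8 ChIP libraries, over the 32062 genes whose reads reached 10 in 2 or more of the ChIP libraries, which all 6 members did. A change on this scale understates that of genes with few reads. A gene is said here to have risen or fallen where the Benjamini-Hochberg adjusted p was under 0.05, and to be called where it also changed more than 2-fold. In *brm-1 clf-29* against Col, 3 of the 6 members were called, *TSF* and *MFT* as higher, with 4.92% of all tested genes called higher, and *BFT* as lower, with 40.3% of all genes called lower. In *brm-1* against Col 0 members were called, with 38.8% of all genes called in either direction. In *clf-29* against Col also 0 were called, with 38.1% of all genes called. All members but *BFT* carried the mark in Col, and for such genes the shares were different. For *brm-1 clf-29*, calls upwards made up 14.3% of the 8744 tested genes with the mark in Col and calls downwards 9.72%. The same shares came to 0.377% and 0.732% for *brm-1*, and to 15.4% and 10.5% for *clf-29*. Members with an unadjusted p under 0.05 numbered 5, 3 and 4 in these comparisons, which share the Col libraries. The share of all genes at this threshold was not counted. It is at least the share called, 45.2%, 38.8% and 38.1% in the same order, because the rule for a call is stricter. In *brm-1 clf-29* over *brm-1* limma called 0 members, with 6.57% of all genes called, and against *clf-29* it called 0 members, with 0.352% of all genes called. Members at an unadjusted p under 0.05 numbered 4 and 0 there. The shares called are no background for these counts, because the share of all genes at the unadjusted threshold was not counted. Limma-voom on the same reads called 3 members in *brm-1 clf-29* against Col and 0 in the other comparisons named here.

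The median change of the members was 0.43 (log2) in *brm-1 clf-29* against Col, 0.23 in *brm-1* against Col and 0.51 in *clf-29* against Col, each above the median of all tested genes given above. Against the genes marked in Col, whose medians were 0.30, 0.25 and 0.31, the members lay higher in *brm-1 clf-29* and *clf-29* and slightly lower in *brm-1*. In *brm-1 clf-29* over *brm-1* the median of the members was 0.13, beside 0.08 over all tested genes and 0.11 over those marked in Col. Against *clf-29* it was 0.02, beside -0.05 and -0.01. The scale decides much of the comparison with Col. With median-of-ratios size factors the median of all genes was -0.11 in *brm-1 clf-29*, -0.01 in *brm-1* and -0.09 in *clf-29*, and 79.9%, 83.0% and 81.2% of all called genes were higher there, against 10.9%, 0.892% and 12.2% with RPM.

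**Figure D2:**
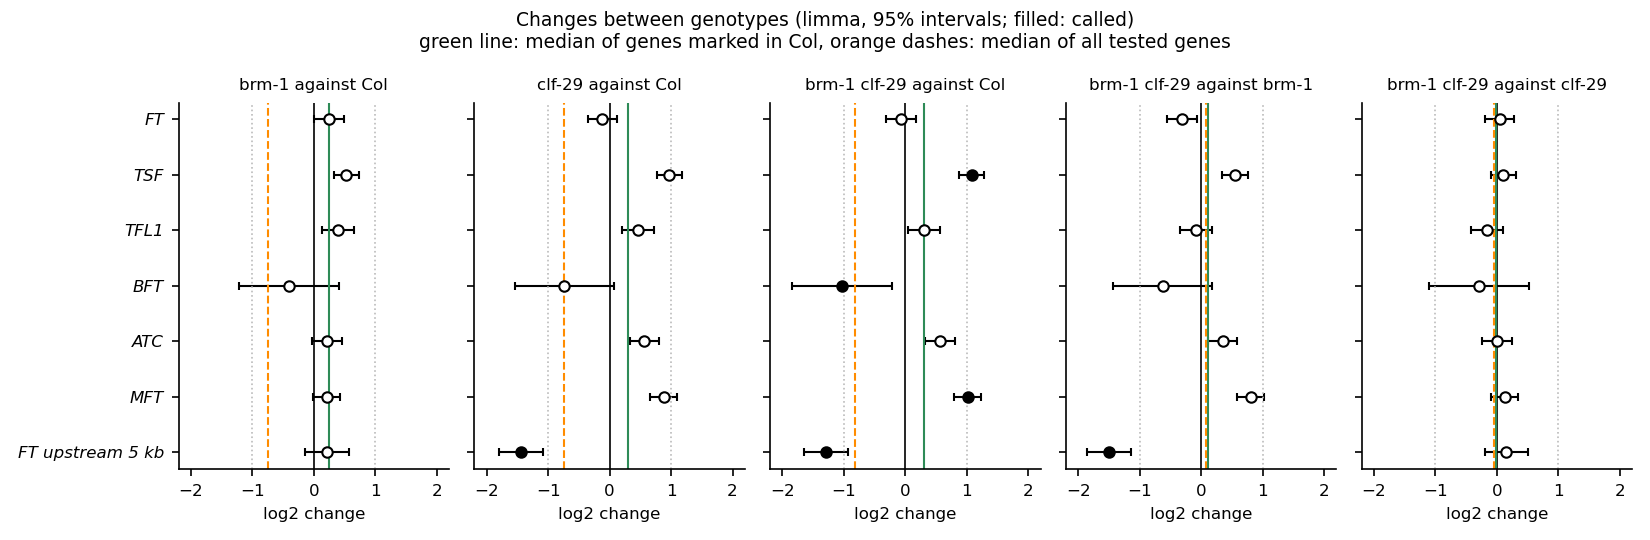
Log2 change of each member and of the 5 kb upstream of *FT* in 5 comparisons, with 95% intervals from limma and filled points for calls (adjusted p under 0.05 and more than 2-fold). The *FT* upstream stretch is called lower in *brm-1 clf-29* and *clf-29* against Col, as well as in *brm-1 clf-29* over *brm-1*, while the *FT* gene lies between -0.31 and -0.07 in them, with open points.

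*FT* (chromosome 1, 24331373 to 24333999, plus strand, 2627 bp, TAIR10.1) kept its gene-body mark in all genotypes and had less of it upstream, on the RPM scale, in the genotypes with *clf-29*. The *FT* promoter receives CONSTANS and NF-Y factors, which recognise CCAAT boxes, and PRC2 is recruited in plants partly through telobox and GAGA motifs. The following stretches of the upstream region are from the TAIR10.1 assembly of RefSeq and on the strand of the gene. They lie at chr1:24328123-24328372 (3250 to 3001 bp before the annotated start, the upstream 250 bp bin with the highest level in Col) and at chr1:24331123-24331372 (the 250 bp before the start). A difference between genotypes was not tested in either stretch on its own.
*FT* 3250 to 3001 bp upstream: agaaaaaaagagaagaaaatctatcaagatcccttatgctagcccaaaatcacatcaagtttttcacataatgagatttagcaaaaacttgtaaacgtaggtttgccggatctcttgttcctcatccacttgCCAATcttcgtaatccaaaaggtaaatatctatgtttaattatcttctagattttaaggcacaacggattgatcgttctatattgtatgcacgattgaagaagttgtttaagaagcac
*FT* 250 bp before the start: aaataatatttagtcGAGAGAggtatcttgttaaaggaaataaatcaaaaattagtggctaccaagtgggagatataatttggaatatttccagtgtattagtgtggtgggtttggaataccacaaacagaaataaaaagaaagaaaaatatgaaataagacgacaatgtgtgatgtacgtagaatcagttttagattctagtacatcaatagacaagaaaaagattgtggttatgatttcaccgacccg
Capitals mark CCAAT in the upper stretch and GAGAGA in the lower one, searched on both strands together with the telobox AAACCCTA. The CCAAT begins 3118 bp before the start, and 42.2% of all genes hold one in the corresponding 250 bp window. The GAGAGA begins 235 bp before the start, and 28.5% of all promoters hold one in the 300 bp from 250 bp before to 50 bp after the start. A match is a description of the letters and not of a bound factor.

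The 5 kb before the start of *FT* held 5.52 and 6.45 RPM per kb in *brm-1 clf-29*, 14.5 and 20.4 in *brm-1*, 4.93 and 5.78 in *clf-29*, and 15.3 and 14.4 in Col. The inputs of the same genotypes held 8.48, 8.28, 9.15 and 8.36 RPM per kb. Every library with *clf-29* was thus below its input and every library without it above, with no overlap. In *brm-1 clf-29* the stretch fell by 1.29 on the log2 scale relative to Col (SE 0.17, limma adjusted p = 1.07e-05 over 37880 upstream windows) and fell by 1.50 relative to *brm-1* (SE 0.17, adjusted p = 3.64e-06). In *clf-29* it fell by 1.44 relative to Col (SE 0.17, adjusted p = 2.89e-06).

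Of all upstream windows, 37.4% were called lower in *brm-1 clf-29* against Col, 6.28% in *brm-1 clf-29* over *brm-1* and 33.3% in *clf-29* against Col. Of the 8743 windows upstream of genes marked in Col, 1335 were called lower in *brm-1 clf-29* and 1503 in *clf-29* against Col, with 1103 lower in the double mutant than in *brm-1*. The windows of the genes marked in Col had a median change of -0.15, -0.24 and -0.14 (log2) in these comparisons, taken in the same order. In *brm-1* against Col the stretch upstream of *FT* was not called (0.21, 95% interval -0.15 to 0.56, adjusted p = 0.291), with 33.3% of all windows called in either direction, and leaving out *brm-1* replicate 2 turned the change to -0.032. In *brm-1 clf-29* against *clf-29* it was not called either (0.16, 95% interval -0.20 to 0.51, adjusted p = 0.774), with 0.333% of all windows called. The *brm-1* effect in the *clf-29* background minus that in Col was -0.05 (95% interval -0.55 to 0.45, adjusted p = 0.878), with 13.4% of windows passing.

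With median-of-ratios factors the stretch upstream of *FT* was no longer called in *brm-1 clf-29* (-0.44) or *clf-29* (-0.68) against Col, nor with TMM over all genes in *brm-1 clf-29* against Col (-0.90). The call in *brm-1 clf-29* over *brm-1* held in all 18 alternatives, between -1.74 and -1.26.

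A share of reads within the locus does not depend on the scaling. Of the reads in the *FT* gene and the 5 kb before it, the upstream part held 23.9% (95% Wilson interval 19.3 to 29.2%) and 27.2% (22.9 to 31.9%) in the *brm-1 clf-29* libraries, and 40.3% (36.6 to 44.2%) and 48.1% (44.0 to 52.3%) in *brm-1*. It held 24.5% (19.7 to 30.1%) and 23.6% (18.8 to 29.1%) in *clf-29*, and 44.3% (40.5 to 48.2%) and 45.3% (40.9 to 49.8%) in Col. The intervals of the libraries with *clf-29* did not meet those of the libraries without it. In the inputs the share was 62.5%, 61.5%, 66.8% and 70.1%, so that the gene itself was enriched over its upstream part in every ChIP library. The intervals cover counting error only.

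By 1 kb windows, the mean level upstream of *FT* in Col and *brm-1* was highest 3 to 4 kb before the start and fell off towards the gene. That window held 8.85 ± 1.03 RPM per kb in *brm-1 clf-29*, 22.8 ± 2.32 in *brm-1*, 9.92 ± 2.05 in *clf-29* and 23.7 ± 1.26 in Col (SD, n = 2). In *brm-1* replicate 2 alone the levels were 24.4, 25.2 and 25.5 at 3 to 4, 2 to 3 and 1 to 2 kb. They fell there only in the last 1 kb (18.4). The window 1 to 2 kb before the start held 3.51 ± 1.35 in *brm-1 clf-29*, 20.6 ± 7.05 in *brm-1*, 3.82 ± 0.0442 in *clf-29* and 16.0 ± 0.176 in Col. In the genotypes with *clf-29* the level 3 to 4 kb before the start was above that at 1 to 2 kb. Its means there were below the inputs of 11.2 RPM per kb in *brm-1 clf-29* and 10.1 in *clf-29*. In the last 1 kb before the start the levels were 5.72 ± 0.0457 in *brm-1 clf-29*, 15.9 ± 3.57 in *brm-1*, 2.96 ± 0.169 in *clf-29* and 11.1 ± 0.222 in Col. The window 4 to 5 kb before the start held 2.16 ± 1.91 in *brm-1 clf-29*, 6.91 ± 1.91 in *brm-1*, 1.29 ± 0.188 in *clf-29* and 5.52 ± 0.317 in Col, and none of these means exceeded its input by more than the SD of its libraries.

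**Figure D3:**
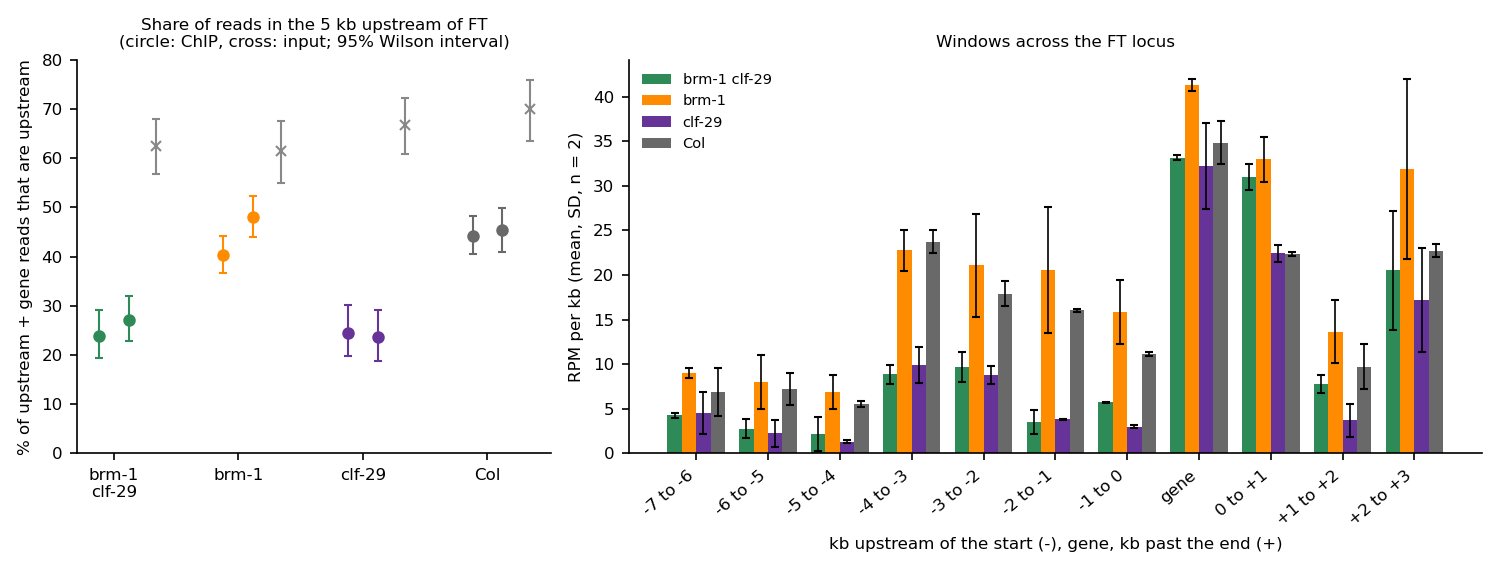
Left, percent of the reads in the *FT* gene and its 5 kb upstream that are upstream, for each library with its 95% Wilson interval; right, RPM per kb in 1 kb windows across the locus, as mean and SD of 2 ChIP libraries. The 4 libraries with *clf-29* sit between 23.6% and 27.2% and the 4 without it between 40.3% and 48.1%.

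The *FT* gene itself held 33.4 and 32.9 RPM per kb in *brm-1 clf-29*, 40.9 and 41.8 in *brm-1*, 28.9 and 35.7 in *clf-29*, and 36.6 and 33.2 in Col. The inputs held 9.67, 9.88, 8.66 and 6.79 RPM per kb in the same order of genotypes. Both *brm-1* libraries were above all others, and those of the other genotypes overlapped. No comparison passed the test: the change was -0.07 in *brm-1 clf-29* against Col (95% interval -0.31 to 0.17, limma adjusted p = 0.597), 0.24 in *brm-1* (0.0039 to 0.48, adjusted p = 0.0797) and -0.12 in *clf-29* (-0.36 to 0.12, adjusted p = 0.382). In *brm-1 clf-29* it was -0.31 against *brm-1* (-0.55 to -0.07, adjusted p = 0.0631) and 0.05 against *clf-29* (-0.19 to 0.29, adjusted p = 0.938). The sign against Col is not fixed, since median-of-ratios factors gave 0.78 in *brm-1 clf-29* (adjusted p = 0.000779) and 0.65 in *clf-29* (adjusted p = 0.00488), while TMM on Col-marked genes gave -0.43 (adjusted p = 0.00297) and -0.49 (adjusted p = 0.00121). Relative to the median gene marked in Col, *FT* stood at 1.11 ± 0.00126 in *brm-1 clf-29*, 1.33 ± 0.0395 in *brm-1*, 1.11 ± 0.205 in *clf-29* and 1.36 ± 0.0803 in Col.

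Within the *FT* gene the mark lay towards the 3′ end, and more so with *clf-29*. The first 50% of its length held 10.6% and 16.2% of the gene's reads in *brm-1 clf-29*, 27.5% and 28.8% in *brm-1*, 11.7% and 13.1% in *clf-29*, and 21.9% and 25.1% in Col, against 39.3% to 51.4% in the inputs. The libraries with *clf-29* did not overlap those without it, as for the upstream share. The highest bin of 250 bp began 2000 bp after the start in *brm-1 clf-29*, *clf-29* and Col and 2250 bp after it in *brm-1*. At that summit the level was not lower with *clf-29*: the bin of *brm-1 clf-29* held 24.4 and 18.2 RPM, that of *clf-29* 16.2 and 23.2, and that of Col 15.1 and 15.6.

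The enriched regions described the same pattern. In *brm-1* a region of 19400 bp (chr1:24327201-24346600) ran from 4172 bp before the start across the whole gene. In Col the mark lay in separate regions, of which the upstream one (chr1:24327601-24330800) lay from -3772 to -573 bp relative to the start and the next (chr1:24332401-24334800) began 1028 bp after it. A further Col region (chr1:24335801-24347000) lay past the gene, so that with gaps the Col regions spanned nearly the same stretch as that of *brm-1*. In Col replicate 1 alone the region on the gene began 228 bp after the start. In Col replicate 2 alone the upstream region ended 227 bp after it. In *brm-1 clf-29* and *clf-29* a region also began 1028 bp after the start, covering 60.9% of the gene as in Col, and no enriched region lay in the 5 kb upstream.

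**Figure D4:**
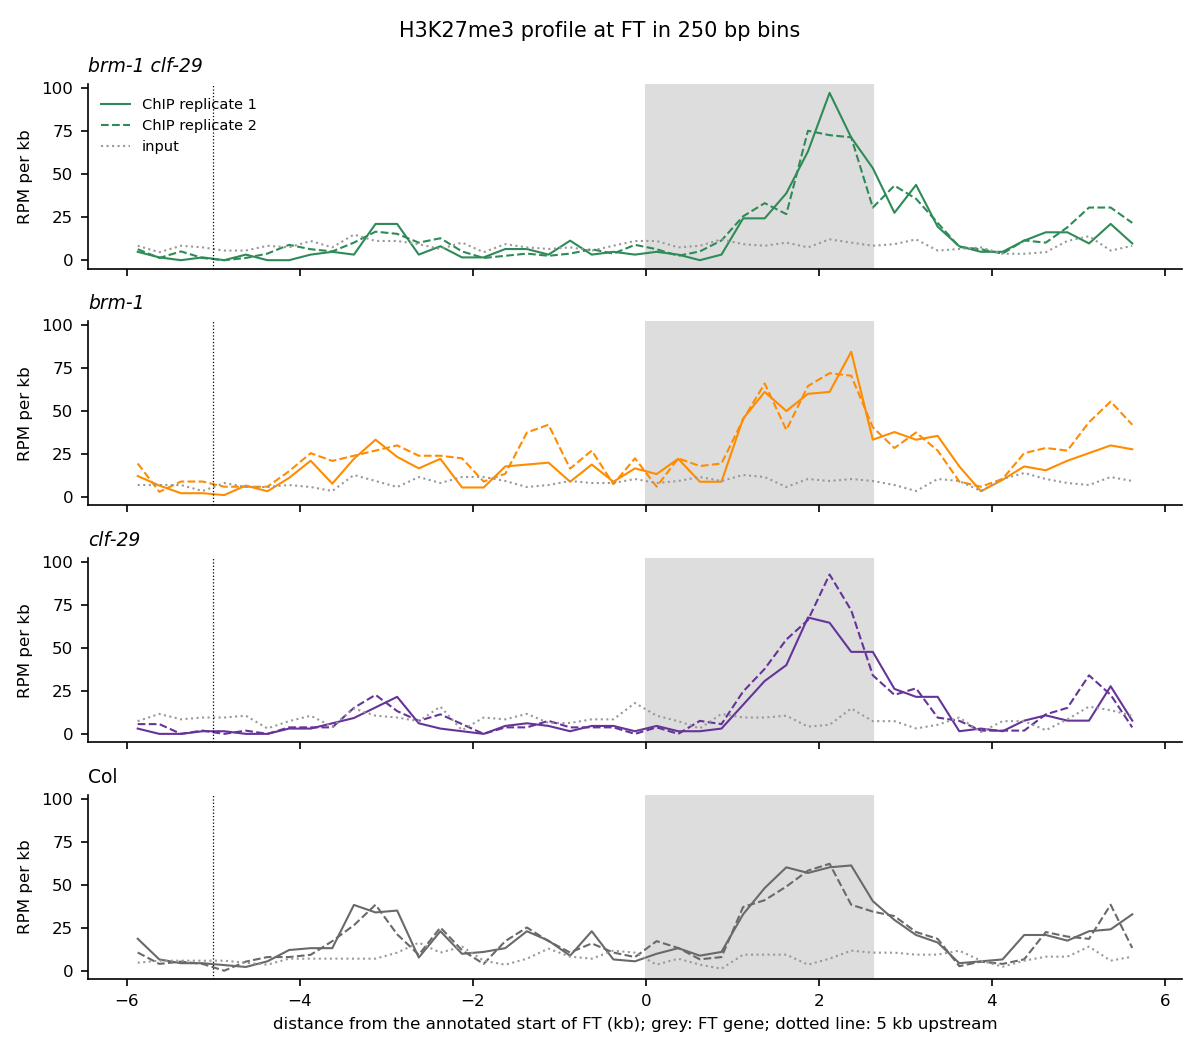
H3K27me3 along the *FT* locus in 250 bp bins, as RPM per kb against the distance from the annotated start in kb, with solid and dashed lines for the ChIP replicates, a dotted line for the input and grey for the gene. Upstream, where *brm-1* and Col have signal, the level in *brm-1 clf-29* and *clf-29* is near or below that of the input, while the summit in the 3′ part of the gene is present in all genotypes.

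*TSF* (chromosome 4, 11000771 to 11003010, minus strand, 2240 bp), the closest relative of *FT*, was the member with the largest rise against Col in all 3 mutants. It held 82.8 and 84.4 RPM per kb in *brm-1 clf-29*, 54.1 and 59.7 in *brm-1*, 71.0 and 84.8 in *clf-29*, and 39.2 and 39.5 in Col, with inputs of 9.57, 8.46, 9.33 and 9.92. The libraries with *clf-29* were highest, those of *brm-1* lay between them and Col, and *brm-1 clf-29* overlapped only with *clf-29*. *TSF* rose by 1.08 (log2) in *brm-1 clf-29* against Col (SE 0.10, limma adjusted p = 7.18e-09), which is 2.12 times the mean RPM of Col. It rose by 0.97 in *clf-29* (SE 0.10, adjusted p = 3.00e-08, 1.98 times), just under the 2-fold limit, and by 0.53 in *brm-1* (SE 0.10, adjusted p = 0.000753, 1.45 times).

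In *brm-1 clf-29* *TSF* also rose against *brm-1*, by 0.55 (SE 0.10, adjusted p = 0.000162), but did not pass against *clf-29* (0.11, 95% interval -0.10 to 0.31, adjusted p = 0.771). Without *clf-29* replicate 1, or with 5 other alternatives, *TSF* was called in *clf-29* against Col (1.10 without that library), and with TMM on Col-marked genes the call in *brm-1 clf-29* was lost (0.72). Relative to the median gene marked in Col, *TSF* stood at 2.80 ± 0.0601 in *brm-1 clf-29*, 1.83 ± 0.153 in *brm-1*, 2.69 ± 0.429 in *clf-29* and 1.53 ± 0.0224 in Col, so its rise was larger than that of the typical marked gene. An enriched region covered the whole gene in every genotype and reached 990 bp before the start in the 3 mutants and 790 bp in Col. The last 1 kb before the start changed as the gene did: 44.2 and 53.6 RPM per kb in *brm-1 clf-29*, 28.9 and 34.6 in *brm-1*, 41.2 and 49.2 in *clf-29*, and 20.0 and 19.5 in Col. Its highest 250 bp bin began 1750 bp after the start in all 4 genotypes.

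*MFT* (chromosome 1, 6227217 to 6230194, minus strand, 2978 bp), which acts in the germinating seed, rose in the genotypes with *clf-29*. It held 57.7 and 53.9 RPM per kb in *brm-1 clf-29*, 31.9 and 31.7 in *brm-1*, 46.7 and 55.3 in *clf-29*, and 29.3 and 25.6 in Col, with inputs of 9.08, 6.66, 8.70 and 9.42. The libraries with *clf-29* lay above all others, and *brm-1* lay just above Col without overlap. *MFT* rose by 1.02 (log2) in *brm-1 clf-29* against Col (SE 0.11, limma adjusted p = 5.52e-08, 2.03 times the mean RPM of Col) and by 0.88 in *clf-29* (SE 0.11, adjusted p = 4.18e-07, 1.86 times). In *brm-1* against Col the change was 0.21 (95% interval -0.01 to 0.43, adjusted p = 0.096).

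In *brm-1 clf-29* *MFT* rose by 0.81 against *brm-1* (SE 0.11, adjusted p = 4.08e-06), and against *clf-29* the change was 0.13 (-0.09 to 0.35, adjusted p = 0.724). *MFT* sat close to the 2-fold limit: its call in *brm-1 clf-29* against Col was lost without Col replicate 2 (0.92) or without *brm-1 clf-29* replicate 1 (0.97), with TMM on Col-marked genes (0.66) and with 3 other alternatives, with the sign kept in all 19. Relative to the median gene marked in Col, *MFT* stood at 1.87 ± 0.0729 in *brm-1 clf-29*, 1.02 ± 0.0106 in *brm-1*, 1.76 ± 0.272 in *clf-29* and 1.07 ± 0.0922 in Col.

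The mark of *MFT* lay at its 5′ end. The first 50% of its length held 82.0% and 83.9% of the gene's reads in *brm-1 clf-29*, 79.2% and 78.5% in *brm-1*, 77.8% and 75.6% in *clf-29*, and 70.2% and 69.6% in Col, against 48.0% to 52.9% in the inputs. Every mutant library was above those of Col. The enriched region reached 2806 bp before the start in *brm-1 clf-29* and *brm-1*, 206 bp in *clf-29* and 6 bp in Col. This reach depends on the joining of windows over gaps of up to 600 bp. The last 1 kb before the start held 18.7 and 24.9 RPM per kb in *brm-1 clf-29*, 13.9 and 20.7 in *brm-1*, 14.2 and 21.3 in *clf-29*, and 13.4 and 9.94 in Col. The inputs there held 9.55, 7.00, 8.73 and 6.14, and the libraries of *brm-1* and *clf-29* overlapped. The last 606 bp of *MFT* overlap AT1G18090, and the noncoding locus AT1G05383 also overlaps it. Outside the stretch shared with AT1G18090, a split chosen after the annotation was seen, *MFT* held 72.0 and 67.2 RPM per kb in *brm-1 clf-29*, 39.5 and 39.4 in *brm-1*, 58.4 and 67.7 in *clf-29*, and 35.9 and 31.7 in Col. Inside it every ChIP library held at most 9 reads.

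The promoters of *TSF* and *MFT* are shown because these were the members called higher in *brm-1 clf-29*. They are the 250 bp before the annotated starts at chr4:11003011-11003260 and chr1:6230195-6230444, both read on the minus strand from the TAIR10.1 assembly of RefSeq.
*TSF* 250 bp before the start: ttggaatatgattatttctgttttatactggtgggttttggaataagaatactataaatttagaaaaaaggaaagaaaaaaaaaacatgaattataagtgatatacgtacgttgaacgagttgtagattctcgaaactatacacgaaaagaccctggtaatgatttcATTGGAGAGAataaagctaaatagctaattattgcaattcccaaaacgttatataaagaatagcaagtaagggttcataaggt
*MFT* 250 bp before the start: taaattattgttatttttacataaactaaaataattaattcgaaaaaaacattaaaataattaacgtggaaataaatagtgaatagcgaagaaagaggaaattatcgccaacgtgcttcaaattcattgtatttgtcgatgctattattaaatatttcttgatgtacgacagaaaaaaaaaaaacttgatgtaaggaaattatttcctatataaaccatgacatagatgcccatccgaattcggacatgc
The capitals in *TSF* are a CCAAT box read on the other strand, which begins 83 bp before the start, and a GAGAGA that begins 79 bp before it and shares 1 base with the box. *MFT* held none of the 3 motifs in its promoter window. Of all promoters 50.5% hold CCAAT, 28.5% GAGAGA and 6.17% the telobox, which among the 6 members was found only in *ATC*, 23 bp after its start.

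*TFL1* (chromosome 5, 1024500 to 1025872, minus strand, 1373 bp), the meristem gene that delays flowering, rose in all 3 mutants by less than 2-fold. It held 54.1 and 53.0 RPM per kb in *brm-1 clf-29*, 51.7 and 62.7 in *brm-1*, 61.1 and 58.6 in *clf-29*, and 41.3 and 45.6 in Col, with inputs of 8.32, 9.13, 10.0 and 7.02. Every mutant library exceeded those of Col, and the libraries of *brm-1* enclosed those of the other mutants. *TFL1* rose by 0.30 (log2) in *brm-1 clf-29* against Col (SE 0.13, limma adjusted p = 0.0419), by 0.39 in *brm-1* (SE 0.13, adjusted p = 0.0159) and by 0.46 in *clf-29* (SE 0.13, adjusted p = 0.00496). Scaled by TMM on Col-marked genes the first of these turned to -0.057, and as ChIP over input the rise in *clf-29* turned to -0.013.

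Among the mutants *TFL1* passed no test, with -0.09 in *brm-1 clf-29* over *brm-1* (95% interval -0.35 to 0.17, adjusted p = 0.757) and -0.16 against *clf-29* (-0.42 to 0.10, adjusted p = 0.722). Relative to the median gene marked in Col it stood at 1.79 ± 0.0109 in *brm-1 clf-29*, 1.84 ± 0.277 in *brm-1*, 2.06 ± 0.0112 in *clf-29* and 1.69 ± 0.136 in Col. The 1 kb before its start showed another order than the gene: 30.4 and 34.8 RPM per kb in *brm-1 clf-29*, 43.4 and 46.6 in *brm-1*, 28.1 and 28.4 in *clf-29*, and 41.3 and 35.8 in Col. There the libraries with *clf-29* lay below all those without it, as upstream of *FT* but at levels above the inputs (8.86 to 11.7 RPM per kb). This stretch had no window of its own in the tested tables. The enriched region covered *TFL1* whole in each genotype and ran 2899 to 3699 bp past its end, and it reached 928 bp before the start in *brm-1 clf-29* and 1328 bp in the other genotypes.

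*ATC* (chromosome 2, 11773187 to 11774746, plus strand, 1560 bp), the close relative of *TFL1*, rose in the genotypes with *clf-29*. It held 58.8 and 64.9 RPM per kb in *brm-1 clf-29*, 47.3 and 49.4 in *brm-1*, 61.9 and 61.6 in *clf-29*, and 38.6 and 44.6 in Col, with inputs of 7.32, 6.91, 6.95 and 9.56. The libraries with *clf-29* lay above all others, with *brm-1* between them and Col. *ATC* rose by 0.57 (log2) in *brm-1 clf-29* against Col (SE 0.12, limma adjusted p = 0.000431, 1.49 times the mean RPM of Col) and by 0.57 in *clf-29* (SE 0.12, adjusted p = 0.000474, 1.49 times), and by 0.35 in *brm-1 clf-29* over *brm-1* (SE 0.12, adjusted p = 0.0361). In *brm-1* against Col the change was 0.22 (95% interval -0.03 to 0.46, adjusted p = 0.12), and in *brm-1 clf-29* against *clf-29* it was -0.00 (-0.24 to 0.24, adjusted p = 0.999). Relative to the median gene marked in Col, *ATC* stood at 2.07 ± 0.161 in *brm-1 clf-29*, 1.55 ± 0.0707 in *brm-1*, 2.13 ± 0.0664 in *clf-29* and 1.62 ± 0.181 in Col. Its enriched region began 2586 bp before the start in every genotype, covered the whole gene and reached 1054 to 1454 bp past its end, into AT2G27570.

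**Figure D5:**
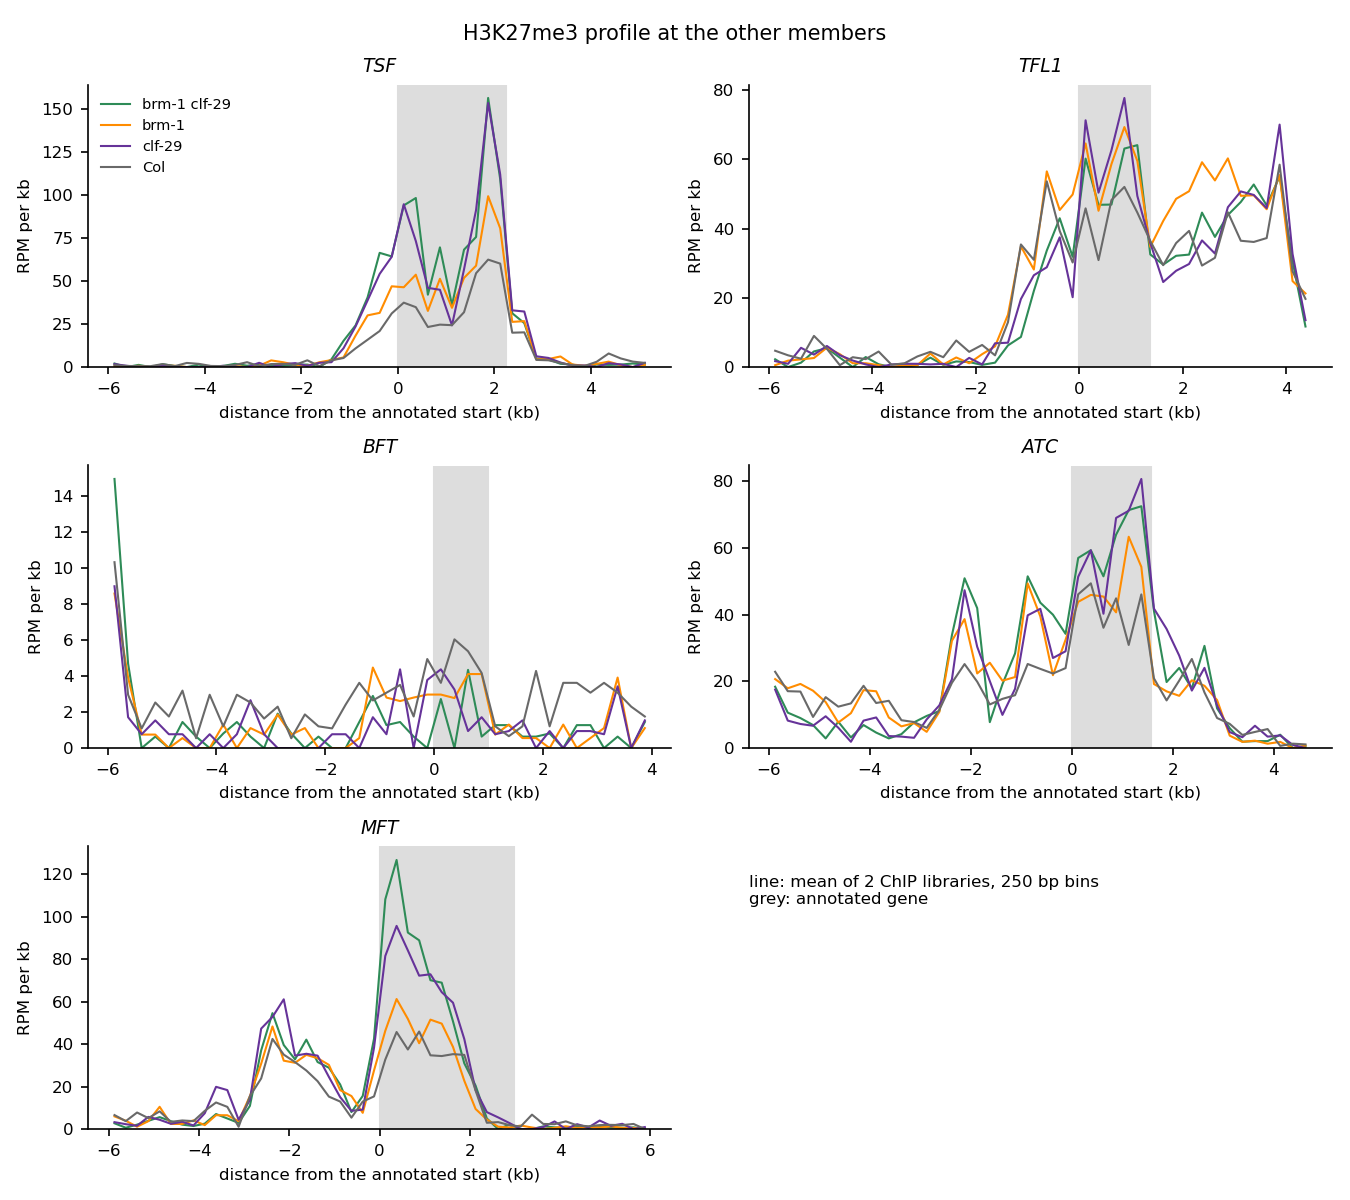
H3K27me3 at *TSF*, *TFL1*, *BFT*, *ATC* and *MFT* in 250 bp bins, as RPM per kb (mean of 2 ChIP libraries) against the distance from the annotated start in kb, with grey for the gene. In *TSF* and *MFT* the lines of *brm-1 clf-29* and *clf-29* run above those of *brm-1* and Col over the gene, and *BFT* has no summit of its own.

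*BFT* (chromosome 5, 24922802 to 24923797, plus strand, 996 bp, counted over 1000 bp) had no enriched region in any genotype at this depth. It held 1.62 and 2.24 RPM per kb in *brm-1 clf-29* (4 and 7 reads), 3.62 and 3.38 in *brm-1* (13 and 9 reads), 2.31 and 2.84 in *clf-29* (6 and 6 reads), and 4.93 and 4.97 in Col (18 and 15 reads). The inputs held 8.62, 8.45, 5.82 and 9.35 RPM per kb, above every ChIP library of the same genotype. The median gene outside every enriched region held 1.09, 1.02, 1.24 and 2.68 RPM per kb in the same order, below the mean of *BFT* in each genotype. *BFT* fell by 1.03 (log2) in *brm-1 clf-29* against Col (SE 0.39, limma adjusted p = 0.0274), a change near the median of -0.82 over all tested genes. That call was lost without any single one of the 4 libraries (-1.18 to -0.88), with median-of-ratios factors (-0.37) and with 6 other alternatives. In *brm-1* the change against Col was -0.40 (95% interval -1.21 to 0.41, adjusted p = 0.384) and in *clf-29* -0.74 (-1.55 to 0.07, adjusted p = 0.107). Against *brm-1* and *clf-29* the change in *brm-1 clf-29* was -0.63 (adjusted p = 0.343) and -0.29 (adjusted p = 0.861). Its last 333 bp overlap *OXA1* on the other strand, which was also unmarked, and reads of both genes cannot be told apart there.

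The effect of *brm-1* in the *clf-29* background minus that in Col was tested as a difference of effects, called on the adjusted p alone. By limma 0 of the 6 members passed, with 10.2% of all genes passing. The share of all genes at an unadjusted p under 0.05 was not counted, and 2 members reached that threshold. Those were *TFL1* (-0.54, SE 0.18, adjusted p = 0.0509) and *TSF* (-0.42, SE 0.14, adjusted p = 0.0541). The remaining differences were -0.22 for *ATC* (adjusted p = 0.349), -0.20 for *FT* (adjusted p = 0.389), -0.08 for *MFT* (adjusted p = 0.724) and 0.11 for *BFT* (adjusted p = 0.898). The median of the members was -0.21, beside 0.59 over all tested genes and -0.25 over the genes marked in Col, and limma-voom passed 2 members.

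Of the 12 nearest protein-coding genes on either side of the members, 0 rose and 7 fell past 2-fold in *brm-1 clf-29* against Col, beside the 4.92% and 40.3% of all genes given above. For *brm-1* against Col 5 of these neighbours fell past 2-fold and 0 rose, beside 38.5% and 0.346% of all genes. For *clf-29* against Col the counts were also 5 and 0, beside 33.5% and 4.63%. Past the same limit, 2 neighbours fell in *brm-1 clf-29* over *brm-1*, beside 5.18% of all genes. The genes called lower there were AT2G27540 (-1.26), upstream of *ATC*, and AT1G65481, which begins 6736 bp past the end of *FT*, and both were also called lower in *clf-29* and *brm-1 clf-29* against Col, as the stretch upstream of *FT* was. AT2G27540 held 3.25 and 7.34 RPM per kb in *brm-1 clf-29*, 10.8 and 16.2 in *brm-1*, 5.78 and 5.68 in *clf-29*, and 18.3 and 11.6 in Col, again without overlap between libraries with and without *clf-29*. AT1G65481 held 11.0 and 15.6 RPM per kb in *brm-1 clf-29*, 32.9 and 36.5 in *brm-1*, 11.7 and 10.0 in *clf-29*, and 28.0 and 35.0 in Col, with no overlap between the libraries with *clf-29* and those without. AT1G65481 fell by 1.20 (log2) in *brm-1 clf-29* against Col (SE 0.21, limma adjusted p = 7.24e-05), by 1.46 in *clf-29* (SE 0.21, adjusted p = 5.65e-06) and by 1.35 in *brm-1 clf-29* over *brm-1* (SE 0.21, adjusted p = 3.16e-05).

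Among 16 genes that act around *FT* in the flowering pathway, those called higher in *brm-1 clf-29* included repressors and targets of *FT*, while the repressor *FLC* was called lower. The list was chosen with earlier results of these data known. In *brm-1 clf-29* against Col 7 were called as higher and 4 as lower, in *brm-1* 2 and 3, and in *clf-29* 5 and 3, with a list median of 0.48, 0.15 and 0.34 (log2) in these comparisons. Over all genes 4.92% were higher and 40.3% lower in *brm-1 clf-29*, 0.346% and 38.5% in *brm-1*, and 4.63% and 33.5% in *clf-29*, so the lower counts of the list did not exceed the shares of all genes. Of the genes marked in Col, 14.3% were higher and 9.72% lower in *brm-1 clf-29*, 0.377% and 0.732% in *brm-1*, and 15.4% and 10.5% in *clf-29*. *SVP*, a MADS-box repressor of *FT*, held 61.2 and 69.1 RPM per kb in *brm-1 clf-29*, 20.2 and 22.8 in *brm-1*, 18.9 and 26.8 in *clf-29*, and 5.40 and 4.59 in Col. It was unmarked in Col, below its input of 9.41 RPM per kb, and marked in the 3 mutants. It rose by 3.65 in *brm-1 clf-29* (SE 0.14, limma adjusted p = 2.18e-14), by 2.06 in *brm-1* and by 2.13 in *clf-29*. The repressors *TEM2* (2.71), *TEM1* (1.81), *SMZ* (1.44) and *SNZ* (1.43) and the targets *LFY* (1.30) and *AP1* (1.00), which *FT* activates at the shoot apex, were also called higher in *brm-1 clf-29* against Col. All kept their sign in 19 alternatives, but *AP1*, just over the 2-fold limit, was called in 12 of them and *LFY* in 18. *TEM1* was unmarked in every genotype, and in *brm-1 clf-29* it held 8.31 and 5.63 RPM per kb against an input of 6.49. *TEM2* was marked only in *brm-1 clf-29*, with 16.1 and 11.6 RPM per kb against an input of 5.75. In *clf-29*, where it was also called higher, *TEM2* lay below its input (5.59 and 4.12 against 7.16).

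The 4 called lower were the repressor *FLC* (-1.46), *FDP* (-1.88), a relative of *FD*, the activator *CO* (-1.02) and its regulator *GI* (-1.07). With the background taken off *CO* turned to 0.11 and *GI* to 0. *CO*, *GI* and *FDP* were unmarked, with ChIP levels below their inputs in every library, whereas *FLC* was marked and held 19.4 and 27.5 RPM per kb in *brm-1 clf-29*, 59.8 and 72.8 in *brm-1*, 39.5 and 53.8 in *clf-29*, and 65.2 and 62.8 in Col. Against *brm-1*, 4 of the 16 were called higher in *brm-1 clf-29* (*TEM2*, *SVP*, *SNZ* and *TEM1*) and 2 lower (*FDP* and *FLC*), and against *clf-29* 2 were called higher (*SVP* and *TEM2*) and 0 lower. Over all genes the shares were 1.39% higher and 5.18% lower against *brm-1*, and 0.29% and 0.0624% against *clf-29*. The difference of the *brm-1* effect passed as higher for *TEM2* and as lower for *AP1*, *FLC*, *FUL* and *LFY*, with 7.63% and 2.59% of all genes passing in these directions. Of the genes marked in Col, as *AP1*, *FLC*, *FUL* and *LFY* were, 0.263% passed as higher and 9.45% as lower. In *brm-1* against Col the called genes were *SVP* and *SMZ* (1.08) as higher and *GI* (-1.33), *FD* (-1.16) and *CO* (-1.05) as lower. In *clf-29* against Col they were *SVP*, *SNZ* (1.39), *TEM2* (1.29), *LFY* (1.29) and *AP1* (1.24) as higher and *FDP* (-1.82), *GI* (-1.04) and *CO* (-1.04) as lower. *FD* was also unmarked in every genotype and held 8 and 1 reads in the *brm-1* libraries. Its call in *brm-1* held in 6 of 18 alternatives, and with the background taken off its change was 0.

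Over the 8 ChIP libraries, the genes whose levels ran most like each marked member, among genes marked in Col with a mean RPM of at least 0.5 times its own, were AT4G16230 and AT2G00610 for *FT* (Pearson's r 0.934 and 0.931), AT2G09010 and AT1G73850 for *TSF* (0.995 and 0.994), AT1G07397 and *CYP702A5* for *TFL1* (0.980 and 0.972), AT1G04207 and AT3G30730 for *ATC* (0.991 and 0.991) and AT1G66850 and *MIR826a* for *MFT* (0.993 and 0.989). These were picked as the highest of 2580 to 5253 candidates per member, and the libraries share the genotypes and the scaling, so the values are a description. No member was among the genes most like another member.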

How the data were processed

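Aligned reads deposited by the authors were used: lists of 51 bp reads with chromosome, start, end and strand and an empty score column, 1 list per library. The authors had mapped them to TAIR10 with Bowtie 0.12.7, without mismatches and to a single place, and used SICER 1.1 for regions, which are not used here; versions are from the submitters' processing notes. From these reads, 1 per position and strand was kept (38.6 to 53.3% of ChIP and 31.2 to 45.5% of input reads were removed), the 5′ end was shifted by 75 bp, and reads were counted over each gene (11045 genes under 1000 bp were widened to 1000 bp) and over the 5000 bp before its start. RPM was used on log2(RPM + 1) with limma 3.58.1 (lmFit, eBayes with trend) in R 4.3.3, with 1 fit each for genes and upstream windows and Benjamini-Hochberg adjustment over the whole table. The depth of 2112103 to 3654258 kept reads limits genes with few reads. Enriched regions were called by a method like that of SICER: 200 bp windows at a Poisson p of 0.2, gaps up to 600 bp, and an exact binomial test against the input at an adjusted p of 0.01. Python 3.11.15, NumPy 2.4.6, SciPy 1.17.1 and pandas 2.3.3 were used. The scripts were tested on simulated data. The 6 members and the lists of 16 pathway genes, 12 flanking genes and 3 control genes (*AG*, *ACTIN2/7* and *TUB2*) were chosen with earlier results of these data known, by name or position. Genes outside the lists were named only as the 2 most alike by Pearson's r for each marked member. Alternatives covered the scaling, pseudocount, filter, duplicates, read shift, counted stretch, input, samples in the fit and leaving out each library.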

Additional observations from a re-analysis of the deposited data

Results flagged for a closer look

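No member had a *brm-1* effect that differed between the *clf-29* and Col backgrounds by limma, but some genes of the pathway list and 1 control gene did, and they are given here for a closer look. The difference, *brm-1* effect in *clf-29* minus that in Col, was 1.58 (log2, SE 0.46, limma adjusted p = 0.0378) for *TEM2*, which was marked only in *brm-1 clf-29*. It was -1.04 for *FLC* (SE 0.18, adjusted p = 0.00807), -0.54 for *AP1* (SE 0.10, adjusted p = 0.0104), -0.55 for *FUL* (SE 0.12, adjusted p = 0.0176) and -0.44 for *LFY* (SE 0.12, adjusted p = 0.031), genes that act with or downstream of *FT* apart from the repressor *FLC*. For *TUB2*, a tubulin gene without the mark, it was 2.19 (SE 0.58, adjusted p = 0.0297), on 3 to 23 reads per ChIP library. Over 22 alternatives these differences kept their sign and passed in 11 for *TEM2*, 19 for *FLC*, 15 for *AP1*, 14 for *FUL*, 12 for *LFY* and 14 for *TUB2*. The background is 10.2% of all tested genes passing, 7.63% as higher and 2.59% as lower. Of the genes marked in Col, as *AP1*, *FLC*, *FUL* and *LFY* were, 0.263% passed as higher and 9.45% as lower.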

How the results depend on the processing

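The values against Col rest on the scaling, and *FT* itself has no fixed sign there. Of 607 alternative values, 524 kept their direction and side of the threshold, 36 came to pass it, 21 no longer did and 26 changed sign. Changes of sign against Col with TMM over all genes were 0.054 for *BFT* in *brm-1*, 0.19 for *FT* in *clf-29* and 0.32 for *FT* in *brm-1 clf-29*, and with median-of-ratios factors 0.33, 0.65 and 0.78 for the same values. With TMM on Col-marked genes they were -0.026 for *ATC*, -0.032 for *MFT* and -0.034 for the *FT* upstream stretch in *brm-1*, -0.057 for *TFL1* in *brm-1 clf-29*, and 0.21 for the upstream difference of effects. As ChIP over input they were -0.27 for *FT* in *brm-1*, -0.013 for *TFL1* in *clf-29*, 0.038 for *TFL1* in *brm-1 clf-29* over *brm-1*, 0.051 for the *TFL1* difference of effects and 0.040 for the upstream one. With the background taken off *BFT* in *brm-1* was 0.10, with 500 bp added *FT* in *brm-1 clf-29* was 0.000183, and with limma-voom the upstream difference was 0.00275. Leaving out 1 library gave -0.032 to 0.45 for the upstream stretch in *brm-1*, -0.27 to 0.035 for *FT* in *clf-29*, -0.14 to 8.17e-05 for *FT* in *brm-1 clf-29*, -0.22 to 0.051 for *TFL1* in *brm-1 clf-29* over *brm-1* and -0.29 to 0.19 for the upstream difference. Members called in *brm-1* against Col numbered 1 with TMM over all genes and 5 with median-of-ratios factors. In *clf-29* they numbered 2 and 4 there, 1 with TMM on Col-marked genes, the background taken off, thinning or ChIP over input, and 0 to 2 without 1 library. In *brm-1 clf-29* against Col they numbered 1 with TMM on Col-marked genes, pseudocount 4 or no shift, and 1 to 2 without 1 library. For the difference of effects they numbered 5 with TMM over all genes or median-of-ratios factors, 3 as ChIP over input, 2 with limma-voom, pseudocount 4 or the replicate block, 1 with 500 bp added, and 0 to 2 without 1 library. The share of called genes that were higher also moved: with TMM over all genes it was 26.9% in *brm-1*, 34.4% in *clf-29* and 35.5% in *brm-1 clf-29* against Col, and 7.70% for *brm-1 clf-29* over *brm-1* (main 21.2%, TMM on Col-marked genes 10.1%). Of the passing differences of effects 74.6% were higher, against 7.50% with median-of-ratios factors, 21.4% with TMM over all genes and 99.0% with TMM on Col-marked genes. The percent of all genes called ranged from 2.54 to 48.3 in *brm-1*, 14.6 to 53.8 in *clf-29* and 15.3 to 56.9 in *brm-1 clf-29* against Col, from 3.58 to 9.96 against *brm-1*, from 0.0405 to 1.82 against *clf-29*, and from 0 to 25.3 for the difference of effects. For upstream windows these ranges were 6.03 to 41.2, 17.7 to 52.7, 18.6 to 52.3, 5.06 to 11.3, 0.153 to 0.681 and 0 to 31.7. The labels give no meaning to shared replicate numbers, and the deviations of same-numbered libraries correlated by -0.0116 to 0.105 over all tested genes and by 0.00812 to 0.273 over those marked in Col, with 0.239 to 0.273 among the 3 mutants and at most 0.0571 with Col. With the replicate block 3 members were called in *brm-1 clf-29* against Col, 0 in the other comparisons of genotypes and 2 for the difference of effects, and the *FT* upstream stretch was called in the same 3 comparisons. The cause of these changes was not tested. The 5 members marked stayed so in each genotype under every region setting tried. A leave-one-out fit leaves 1 library in a genotype, which is then assumed to vary like the others. *BFT*, with 4 to 18 reads per ChIP library, is limited by depth. Adding 500 bp was not run for the upstream stretch.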
